A study of Mus musculus with 7 samples.

Results

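The Notch2 pathway was followed through 6 genes in 7 RNA sequencing libraries of wild-type mouse B cells: the receptors Notch2 and Notch1, the DNA-binding factor Rbpj, and Hes1, Dtx1 and Dtx4, which are targets or modulators of the pathway. They are 6 of the 11635 genes that were named in at least 1 library, and all 6 were assembled in all 7 libraries. Hes1 and Dtx4 were picked for their pattern and so were selected on FPKM (fragments per kilobase of transcript and per M mapped reads) in these same libraries. Their levels are therefore a description and support nothing by themselves. All B cells came from C57BL/6 mice with no other genotype named. They were stimulated with an antibody to IgM (anti-IgM), which engages the B cell antigen receptor, with the cytokine BAFF, or with both, for 8 h or 30 h, or were left unstimulated at 0 h. Each condition had 1 library, so no difference below has a replicate check or a p-value. An unstimulated culture of 8 h or 30 h is not among the libraries, so stimulus and time in culture cannot be told apart in a comparison with the unstimulated library.

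Notch receptors are cell surface proteins that are cut in turn by an ADAM protease and by gamma-secretase when a ligand on a neighbouring cell binds. The released intracellular part enters the nucleus, binds RBPJ together with a Mastermind coactivator, and turns on genes that RBPJ otherwise helps to keep off. In the mouse spleen, Notch2 is required for marginal zone B cells, a subset with high complement receptor 2 (Cr2) and CD1d. Hes1 encodes a transcriptional repressor and is the classical target of the pathway. Dtx1 and Dtx4 encode Deltex proteins, ubiquitin ligases that act on Notch signalling, and Dtx1 is itself a target.

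The 3 windows of DNA below are shown because the values below bear on where Notch2 and Rbpj transcripts begin, and because Dtx1 is the target for which a window was at hand. Each runs from 250 bases before to 50 bases after a gene start in RefSeq (build GRCm38.p6, the assembly of mm10), 5′ to 3′ on the gene's strand. Capitals mark the RBPJ core TGGGAA on either strand.
Notch2, chr3:98013288-98013587, plus strand: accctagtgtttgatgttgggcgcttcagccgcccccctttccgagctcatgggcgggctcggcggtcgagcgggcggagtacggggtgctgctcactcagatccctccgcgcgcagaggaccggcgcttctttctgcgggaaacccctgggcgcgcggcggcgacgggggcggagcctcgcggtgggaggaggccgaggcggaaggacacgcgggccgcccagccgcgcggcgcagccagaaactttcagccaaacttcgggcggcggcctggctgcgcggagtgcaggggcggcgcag
Rbpj, chr5:53590096-53590395, plus strand: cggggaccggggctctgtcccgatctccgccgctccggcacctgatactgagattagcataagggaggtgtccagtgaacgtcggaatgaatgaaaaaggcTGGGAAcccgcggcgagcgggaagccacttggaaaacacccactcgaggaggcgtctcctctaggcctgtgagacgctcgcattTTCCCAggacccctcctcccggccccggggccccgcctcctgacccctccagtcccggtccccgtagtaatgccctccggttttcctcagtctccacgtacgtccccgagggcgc
Dtx1, chr5:120711620-120711919, minus strand: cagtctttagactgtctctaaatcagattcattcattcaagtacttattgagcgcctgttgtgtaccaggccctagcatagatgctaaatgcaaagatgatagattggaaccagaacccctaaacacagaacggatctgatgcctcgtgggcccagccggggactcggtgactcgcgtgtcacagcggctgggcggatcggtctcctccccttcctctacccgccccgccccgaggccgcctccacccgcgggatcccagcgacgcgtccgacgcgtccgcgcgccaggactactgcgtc
Of the 6 genes, 4 matched an entry (Notch1, Notch2, Rbpj and Dtx1), and Hes1 and Dtx4 are named only. The core stood at 149 and 65 bases before the start in the Rbpj window shown and in no window of Notch1, Notch2 or Dtx1. A window of a second Rbpj start, which overlaps the one shown, held 1 of these matches. The longer form GTGGGAA, which contains the core, was in none of the 5 windows of these genes. Of all 32851 windows in the table, 25.6% held the core and 6.38% the longer form, so the matches describe the letters of these windows and no more.

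The libraries held 18.7 to 28.6 M mapped reads, recovered from the deposited values, and 10158 to 10607 named genes. For each gene, FPKM was summed over assembled transcripts of 300 bases or more. Its interval spans 2 standard deviations either way, read from the deposited bounds and called counting error below. For genes of several transcripts these bounds can be wider than the number of reads alone gives. Of 6 B cell markers, 5 were assembled in every library, and Cd79a was not named in any. Their summed FPKM was 769.6 with anti-IgM, 1689 with BAFF and 979.6 with both at 8 h, and 1588, 2161 and 1507 in the same order at 30 h, against 1709 unstimulated. Of follicular B cell markers, Fcer2a had 96.7 to 208.0 FPKM in the 4 libraries with anti-IgM and 237.6 to 370.4 in the 2 with BAFF alone, against 333.2 unstimulated, and Klf2 had 18.8 to 28.1 and 58.0 to 81.4, against 157.5. Of 9 macrophage markers, 6 to 8 were assembled in the 6 stimulated libraries, with summed FPKM of 14.2 to 95.9. All 9 were assembled in the unstimulated library, with a sum of 239.3. The defining marker Csf1r had at most 4.80 FPKM in the stimulated libraries in which it was assembled, against 29.2 in the unstimulated one. Of the other macrophage markers, Emr1 was higher with BAFF at 30 h (48.2 FPKM) than unstimulated (32.8), and Lyz2 had 19.8 FPKM with BAFF and 16.8 with anti-IgM at 30 h, against 16.3, with overlapping intervals. No neutrophil marker and neither Cd3e nor Cd3d of T cells was assembled in any library. Of 7 T cell markers 2 to 4 were assembled, of which Lck had 14.9 to 93.8 FPKM, those of dendritic cells summed to 8.32 to 36.8 and those of stroma, mostly Pecam1, to 18.6 to 110.1. In these bulk samples, fewer cells of a type and less RNA per cell cannot be told apart.

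Notch2 was lower in every library that had received anti-IgM, and was not lower with BAFF alone. At 8 h its level was 20.8 FPKM with anti-IgM, 50.2 with BAFF and 21.6 with both. The level at 30 h was 22.2 FPKM with anti-IgM, 41.7 with BAFF and 22.9 with both, against 40.9 in the unstimulated library. The intervals of the 4 anti-IgM libraries lay between 20.0 and 23.8 FPKM, well apart from those of the other 3 libraries, which began at 39.7. The BAFF library at 30 h and the unstimulated library had overlapping intervals, as did neighbours in order among the 4 anti-IgM libraries. On the scale of log2(FPKM + 1), the difference from the unstimulated library was -0.94 ± 0.07 (2 SD of counting error) with anti-IgM at 8 h and -0.89 ± 0.08 with both. The 30 h difference was -0.85 ± 0.07 with anti-IgM and -0.81 ± 0.07 with both, so that all 4 lay just short of the difference of 1 used below to count a gene. With median ratio scaling the values at 8 h were -1.08 and -1.06, which were counted. With only the most abundant transcript of each library, which need not be the same form, they were -0.20 and -0.51 at 8 h, 1.09 with BAFF at 8 h, which was counted, and -0.38 with both at 30 h. With BAFF the difference by summed FPKM was 0.29 ± 0.06 at 8 h and 0.03 ± 0.06 at 30 h. The B cell markers and Fcer2a and Klf2, given above, also differed between these libraries, and their part in the Notch2 difference was not tested.

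**Figure D1:**
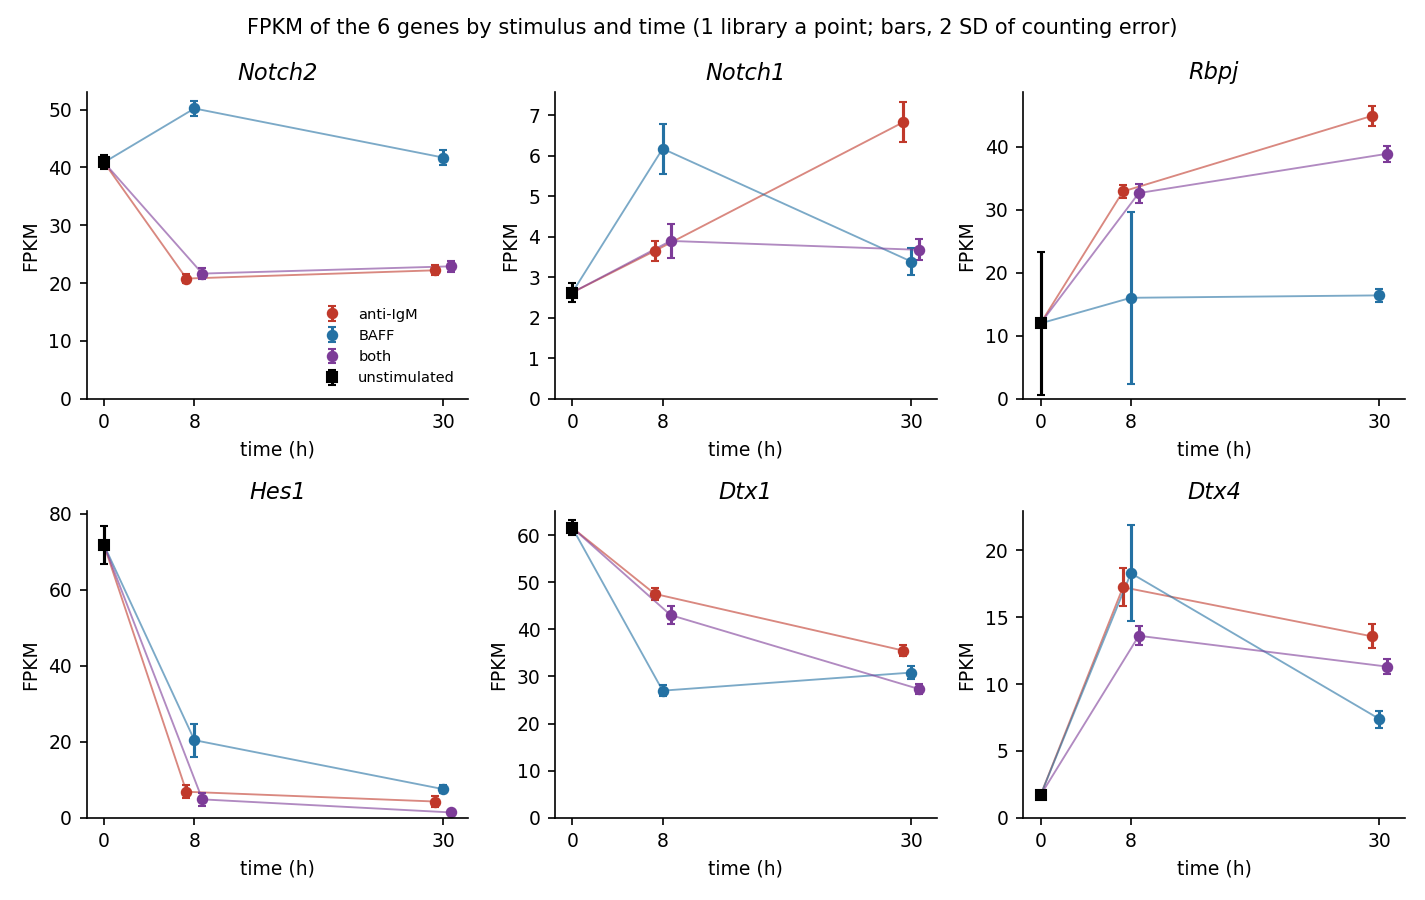
FPKM (y axis, linear from 0) of the 6 genes against time in hours (x axis), with 1 library a point and bars of 2 SD of counting error. Notch2 sits between 20.8 and 22.9 FPKM in the 4 libraries with anti-IgM, Rbpj is highest there (32.6 to 44.9), Hes1 is highest (71.8) and Dtx4 lowest (1.69) in the unstimulated library.

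In 6 of 7 libraries most of the Notch2 FPKM came from transcripts with a first exon far upstream of the annotated one. This exon, on the plus strand of chromosome 3 (mm10), had 2 forms that began between bases 97978914 and 97979088 and ended at base 97979060 or 97979176. Both forms were assembled in 7 of 7 libraries and were joined to the second annotated exon, at base 98047728. Their ends lie 34.5 and 34.4 kb before the start of Notch2 in GENCODE release M21, at base 98013527, which names no gene at the upstream exon. The annotated first exon, which ends at base 98013771 and carries the annotated start codon at bases 98013699 to 98013701, was the first exon of a transcript in 6 libraries. Transcripts from the upstream exon do not contain that start codon.

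The upstream forms made up 84.1% of Notch2 FPKM with anti-IgM at 8 h, 100% with BAFF and 65.2% with both. The 30 h shares were 67.3% with anti-IgM, 70.2% with BAFF and 49.8% with both, against 69.1% in the unstimulated library. In the BAFF library at 8 h no transcript began at the annotated exon. The transcripts share all later exons, so the division of FPKM among them rests on the few reads at their 5′ ends. The window of Notch2 printed above covers the annotated start only.

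**Figure D2:**
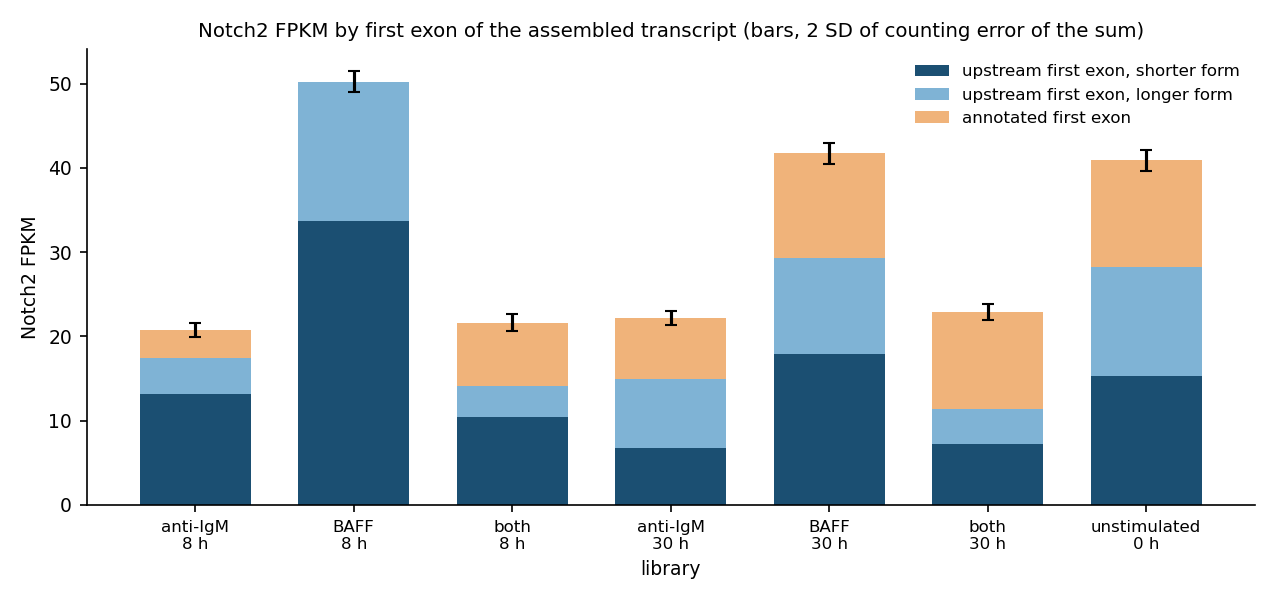
Notch2 FPKM (y axis) in each library (x axis), divided by the first exon of the assembled transcript, with a bar of 2 SD of counting error of the sum. The upstream exon, in its shorter and longer form, makes up 49.8% to 100% of the level, and the library of BAFF at 8 h has none from the annotated exon.

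Notch1, the second receptor, was low throughout. Its level was 3.65 FPKM with anti-IgM, 6.18 with BAFF and 3.90 with both at 8 h. The 30 h libraries had 6.83 FPKM with anti-IgM, 3.39 with BAFF and 3.68 with both, against 2.62 in the unstimulated library, whose interval lay below all others. Per length, Notch2 exceeded Notch1 in every library. Notch1 was assembled as 2 or 3 overlapping transcripts in 4 libraries, among them the 2 highest. All but the longest covered only part of the gene, and the sum adds their FPKM at full weight. A second measure avoids this: the reads of all pieces on the exons of the gene, per kilobase of exon and per M mapped reads (reads over exons). They were calculated back from the FPKM and so are not an independent measure. For Notch1 they were 4.37 with BAFF at 8 h and 5.84 with anti-IgM at 30 h, against 2.43 unstimulated, and 3.02 to 3.51 in the other 4 stimulated libraries.

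Rbpj, the factor that carries the nuclear signal, split the libraries the other way from Notch2. It had 32.9 FPKM with anti-IgM, 16.0 with BAFF and 32.6 with both at 8 h. After 30 h it had 44.9 FPKM with anti-IgM, 16.4 with BAFF and 38.9 with both, against 11.9 in the unstimulated library. The 4 anti-IgM libraries stood above the other 3, with no overlap of intervals. The interval of BAFF at 8 h ran from 2.37 to 29.6 FPKM and that of the unstimulated library from 0.64 to 23.2, where some forms with alternative starts had bounds down to 0. The difference from the unstimulated library was accordingly 1.39 ± 1.26 for anti-IgM and 1.38 ± 1.26 for both at 8 h, and 1.83 ± 1.26 and 1.62 ± 1.26 at 30 h. With the most abundant transcript alone, the value for both at 8 h was 0.72 and was not counted. Against BAFF at 30 h, whose interval was narrow (15.3 to 17.4 FPKM), the difference was 1.40 ± 0.10 for anti-IgM and 1.20 ± 0.10 for both. In 7 of 7 libraries an Rbpj transcript began in an exon that ends at base 53590724 of chromosome 5. This exon begins downstream of the window printed above. A first exon ending at base 53590486 was assembled in 3 libraries and one ending at base 53555903 in 3. The latter began at base 53555901 or 53555903, so at most a few of its bases were assembled. One ending at base 53600750 was assembled in 1 library. Another, ending at base 53591980, was assembled in 3 libraries, all with anti-IgM. It had 3.30 FPKM with anti-IgM at 8 h, 14.7 with anti-IgM at 30 h and 7.38 with both at 30 h. It was not assembled with both at 8 h, with BAFF alone or unstimulated. Rbpj has processed pseudogenes, whose share of these reads was not tested.

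Hes1 was far lower in all 6 stimulated libraries than in the unstimulated one. It had 6.86 FPKM with anti-IgM, 20.4 with BAFF and 4.86 with both at 8 h. After 30 h it had 4.29 FPKM with anti-IgM, 7.56 with BAFF and 1.43 with both, against 71.8 in the unstimulated library. No interval of a stimulated library reached above 24.8 FPKM, and that of the unstimulated library began at 66.7. These values chose the gene and are given with no test. The reads behind them were about 62 with anti-IgM, 99 with BAFF and 34 with both at 8 h, about 33, 193 and 34 in the same order at 30 h, and about 764 in the unstimulated library.

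The size of the Hes1 difference depended on how the transcript was assembled. In 5 libraries Hes1 was broken into a spliced piece of 4 exons and a piece of 1 exon over its 3′ end. The library of BAFF at 8 h had a further piece at the 5′ end. In the unstimulated library the spliced piece had 30.1 FPKM and the 3′ piece 41.7, and both enter the sum although they belong to 1 gene. The libraries of BAFF and of both at 30 h had a single transcript, of 1509 and 1204 bases. By reads over exons, Hes1 had 1.44 with anti-IgM, 3.48 with BAFF and 1.19 with both at 8 h. The 30 h values were 0.946 with anti-IgM, 6.22 with BAFF and 0.931 with both, against 23.0 in the unstimulated library. On that measure it was 16.0-fold, 6.61-fold and 19.3-fold lower than unstimulated at 8 h with anti-IgM, BAFF and both, and 24.3-fold, 3.69-fold and 24.7-fold lower at 30 h. BAFF alone thus left the highest Hes1 level of the stimulated libraries at either time, and the intervals of the BAFF libraries on this measure, 2.78 to 4.17 at 8 h and 5.34 to 7.10 at 30 h, did not overlap those of the 4 anti-IgM libraries, which ended at 1.81.

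**Figure D3:**
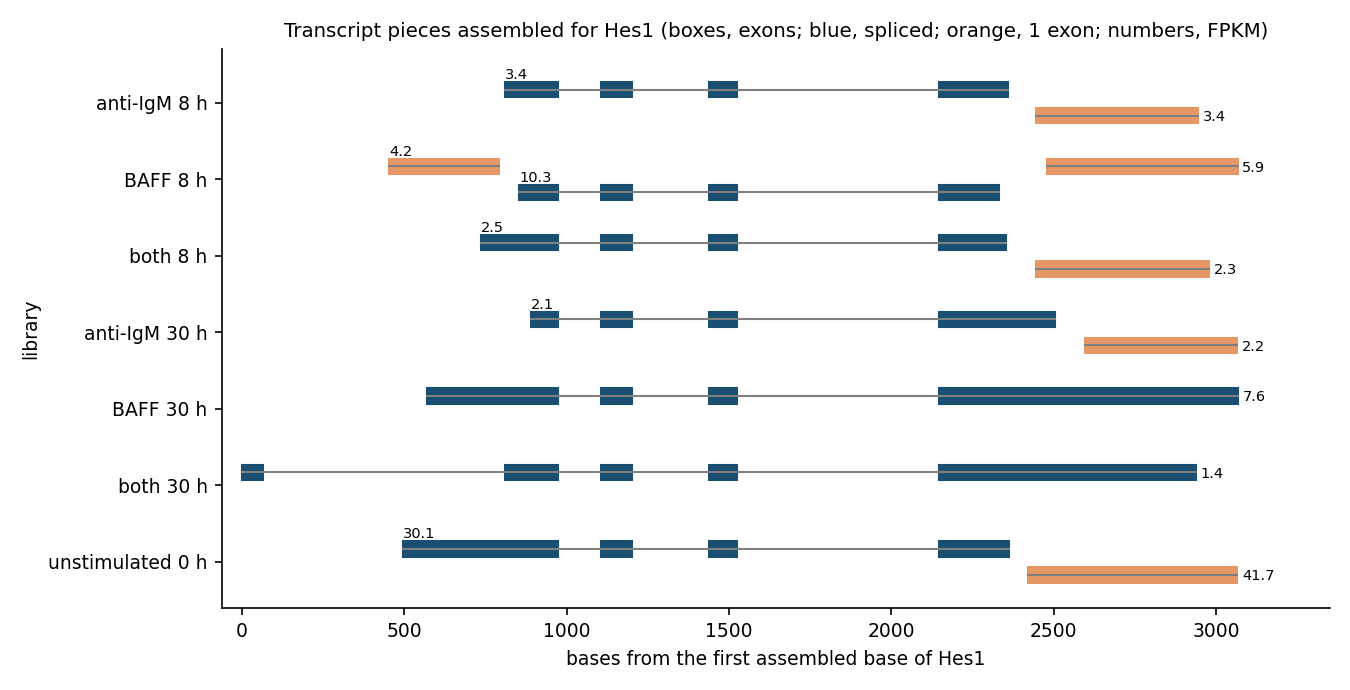
Pieces assembled for Hes1 in each library, drawn by distance in bases from the first assembled base (x axis), with boxes for exons, spliced pieces in blue, 1-exon pieces in orange and FPKM beside each. The library of both stimuli at 30 h has an additional exon upstream, and the libraries of BAFF and of both at 30 h have 1 piece each.

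The summed macrophage markers were also highest in the unstimulated library, though Emr1 and Lyz2 were not, and their part in the Hes1 difference from that library was not tested. Among stimulated libraries the markers summed to 22.2 FPKM with anti-IgM and 22.6 with BAFF at 8 h, where Hes1 reads over exons were 1.44 and 3.48. With both at 8 h the sum was 14.2 FPKM and Hes1 1.19. With BAFF at 30 h the markers summed to 95.9 FPKM, the highest of the stimulated libraries, as was Hes1 by reads over exons. The next highest sums, 58.2 FPKM with anti-IgM and 53.1 with both at 30 h, stood beside the lowest Hes1 reads over exons, 0.946 and 0.931.

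Dtx1, a Deltex gene and target of the pathway, was lower in all 6 stimulated libraries. Its level was 47.5 FPKM with anti-IgM, 27.0 with BAFF and 43.0 with both at 8 h. The last value sums 2 overlapping transcripts, of which the longer alone had 27.7 FPKM, and reads over exons gave 35.6. The 30 h level was 35.5 FPKM with anti-IgM, 30.8 with BAFF and 27.3 with both, against 61.6 in the unstimulated library. All 6 intervals lay below that of the unstimulated library. The difference was -1.16 ± 0.07 with BAFF at 8 h and -1.14 ± 0.07 with both at 30 h, and -0.37 ± 0.05 with anti-IgM at 8 h. With both at 8 h it was -0.51 ± 0.07, and -1.13 with the longer transcript alone, which was counted. BAFF alone had the lowest level at 8 h, and at 30 h the intervals of both stimuli and of BAFF did not overlap but lay within 4 FPKM. In 4 libraries the transcript of Rasal1, which lies on the opposite strand of chromosome 5 and runs toward Dtx1, overlapped it by 861 to 865 bases at the 3′ ends. Rasal1 was not assembled in the unstimulated library. Whether strand was kept is not given in the sources used here, so reads in those bases could belong to either gene.

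Dtx4, a second Deltex gene, had the opposite direction. Its level was 17.2 FPKM with anti-IgM, 18.3 with BAFF and 13.6 with both at 8 h. The 30 h level was 13.6 FPKM with anti-IgM, 7.39 with BAFF and 11.3 with both, against 1.69 in the unstimulated library. The lowest interval of a stimulated library began at 6.75 FPKM, and that of the unstimulated library ended at 1.94. Like Hes1, Dtx4 was chosen for this pattern. By reads over exons it was 9.11-fold, 7.03-fold and 9.44-fold higher than unstimulated at 8 h with anti-IgM, BAFF and both, and 8.36-fold, 4.75-fold and 7.82-fold higher at 30 h. The values with anti-IgM and with BAFF at 8 h include a separate piece of 1 exon at the 5′ end, with 3.11 and 7.52 FPKM, and the spliced transcripts alone had 14.1 and 10.8. Mpeg1, a gene with 33.5 to 71.3 FPKM, ended 985 to 1096 bases from Dtx4, and no assembled transcript joined the genes.

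The other Deltex genes varied less across the libraries than Dtx1 and Dtx4. Some of their intervals were still apart from the unstimulated one. Dtx3 with anti-IgM at 30 h ran from 22.7 to 26.2 FPKM, against 15.9 to 18.8 unstimulated. Dtx3l with both at 8 h had 14.2 FPKM, against 18.1 unstimulated. Dtx2 had 8.31 to 9.33 FPKM, Dtx3 15.9 to 24.5 and Dtx3l 14.2 to 19.5, and none was counted as different from the unstimulated library in any comparison. A gene was counted as different when log2(FPKM + 1) differed by at least 1, which is a doubling or halving of FPKM + 1, and the intervals did not overlap, among genes assembled in both libraries with at least 1 FPKM in 1 of them.

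By this rule 3 of the 6 pathway genes were counted with anti-IgM at 8 h, when 21.3% of all genes were. Rbpj and Dtx4 were higher and Hes1 lower. With BAFF at 8 h, Dtx4 was counted as higher and Hes1 and Dtx1 as lower, beside 9.99% of all genes. Both stimuli at 8 h gave the same 3 genes as anti-IgM, beside 21.1% of all genes. With anti-IgM at 30 h, Notch1, Rbpj and Dtx4 were higher and Hes1 lower, beside 15.7% of all genes. The Notch1 count was lost by reads over exons (0.99) and with the most abundant transcript (0.77). With BAFF at 30 h only Dtx4, higher, and Hes1, lower, were counted, beside 9.29%. With both at 30 h, Rbpj and Dtx4 were higher and Hes1 and Dtx1 lower, beside 16.2%. These are 19 of 36 pairs of gene and comparison, and 12 of the 19 are Hes1 and Dtx4, which these contrasts chose, so nothing is read from the share. The 6 comparisons share the unstimulated library. The median gene was 0.12 higher on the log2 scale with BAFF at 8 h and 0.11 higher with both at 8 h, so each difference of those libraries is relative to a shift of that size.

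**Figure D4:**
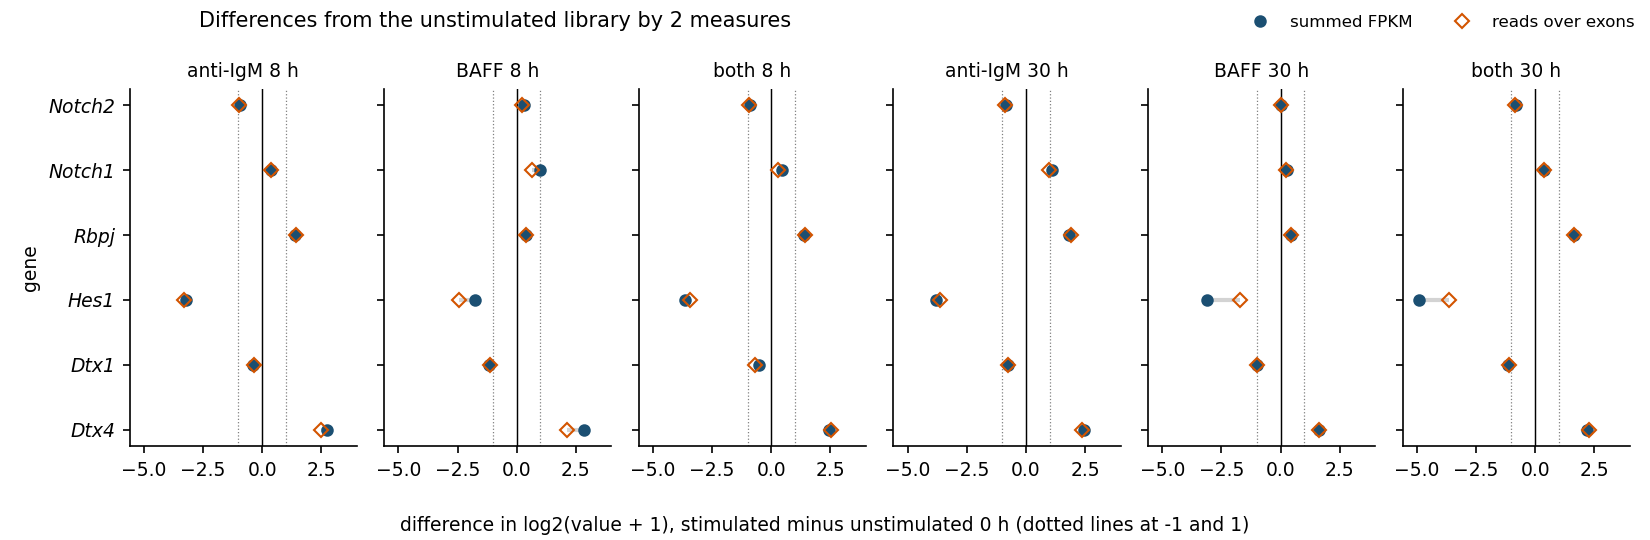
Difference in log2(value + 1) from the unstimulated library (x axis; dotted lines at -1 and 1) for the 6 genes (y axis) in each stimulated library, by summed FPKM (filled) and by reads over exons (open). The measures lie close for Notch2, Rbpj and Dtx1 and apart for Hes1 with BAFF at 30 h (-3.09 and -1.73) and with both at 30 h (-4.91 and -3.63).

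The comparisons between stimuli did not use the unstimulated library. With both stimuli against anti-IgM, none of the 6 genes was counted at 8 h (6.14% of all genes) and only Hes1 at 30 h (5.33%), at -1.13 ± 0.51 by FPKM. By reads over exons Hes1 was under 1 in both of those libraries and was not compared. With both stimuli against BAFF at 8 h, Notch2 was lower by FPKM (-1.18 ± 0.07), as was Hes1 (-1.87 ± 0.51), beside 12.4% of all genes. At 30 h, Rbpj was higher (1.20 ± 0.10) and Hes1 lower (-1.82 ± 0.34), beside 8.14%, and Notch2 differed by -0.84 ± 0.07 without being counted. With anti-IgM against BAFF at 8 h, Notch2 (-1.23 ± 0.06) and Hes1 (-1.45 ± 0.43) were lower, beside 13.2%. By reads over exons that Hes1 difference was -0.88 and lost its count, and Rbpj at 8 h was counted as higher with anti-IgM (1.01) and with both (1.00) than with BAFF. At 30 h only Rbpj was counted (1.40 ± 0.10), beside 8.69%. The Hes1 difference there was -0.69 ± 0.46 by FPKM and -1.89 by reads over exons, which counted it. In each of these comparisons with BAFF, Notch2 was the lower and Rbpj the higher in the library with anti-IgM.

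Between 30 h and 8 h few of the genes differed by this rule. With anti-IgM none was counted, beside 13.3% of all genes, and Rbpj differed by 0.44 ± 0.07 and Notch1 by 0.75 ± 0.12. With both stimuli Hes1 alone was counted (-1.27 ± 0.51, and -0.18 by reads over exons), beside 12.6%. With BAFF, Hes1 (-1.32 ± 0.34) and Dtx4 (-1.20 ± 0.29) were counted as lower at 30 h, beside 7.85%. The Hes1 difference was 0.69, in the other direction, by reads over exons, and that of Dtx4 -0.50, so neither kept its count on that measure. The median gene was 0.12 lower on the log2 scale at 30 h than at 8 h with both stimuli.

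A further 70 genes of the pathway were listed by role, and 62 of them were assembled in at least 1 library. With anti-IgM at 8 h, 3 of 56 compared were counted as higher and 9 as lower, which is 21.4% beside 21.3% of all genes, with a median difference of -0.06 beside 0.04 over all genes. With BAFF at 8 h these were 2 and 6 of 54 (14.8% beside 9.99%, median 0.07 beside 0.12), and with both at 8 h 0 and 7 of 53 (13.2% beside 21.1%, median 0.02 beside 0.11). At 30 h they were 1 and 9 of 55 with anti-IgM (18.2% beside 15.7%, median -0.15 beside 0.06), 2 and 3 of 56 with BAFF (8.93% beside 9.29%, median -0.02 beside 0.07) and 1 and 9 of 55 with both (18.2% beside 16.2%, median -0.10 beside 0.02). Of these 52 counts, 29 were also reached by reads over exons in the same direction.

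Among receptors, Notch3 was not assembled. The transcripts that the merged set named Notch4 are uncertain: 90.6% to 97.5% of their FPKM lay in pieces on exons of Gpsm3, the neighbouring gene, and the rest had 0.60 to 1.69 FPKM. Notch4 accounts for 2 of the 52 counts. Among ligands, Dll3 and Dll4 were not assembled, Dll1, Jag1 and Dlk1 were assembled in 2 or 3 libraries at no more than 3.23 FPKM, and Jag2 had 0.89 to 4.38 FPKM in 6 libraries and was not assembled in the unstimulated one. With anti-IgM at 30 h Jag2 had 3.30 FPKM, against 0.89 with BAFF at 30 h and 0.97 with anti-IgM at 8 h, and it was counted as higher in both comparisons by both measures.

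Among the other targets, Hey1, Hey2 and Heyl, repressors related to Hes1, were not assembled. Hes5 had 2.69 to 7.87 FPKM, with its highest value in the BAFF library at 30 h, which was counted as higher than the unstimulated library (2.73 FPKM, a log2 difference of 1.25) and not by reads over exons (0.76). Nrarp, a feedback inhibitor of Notch, had 1.25 to 3.14 FPKM in 6 libraries and was not counted by FPKM. By reads over exons it had 2.79 (interval 2.36 to 3.22) with anti-IgM at 30 h, against 0.514 (0.323 to 0.705) unstimulated. This met the counting rule as higher on that measure, at about 166 and 29 reads. Reads over exons were 0.504 with anti-IgM and 0.995 with BAFF at 8 h, and 1.78 with BAFF and 1.60 with both at 30 h. Myc, a growth regulator that many signals induce, had 262.9 FPKM with anti-IgM, 64.7 with BAFF and 264.1 with both at 8 h. After 30 h it had 61.2 FPKM with anti-IgM, 29.8 with BAFF and 59.9 with both, against 142.8 unstimulated. By FPKM it was counted as lower in both BAFF libraries and in the anti-IgM and combined libraries at 30 h. Of these, reads over exons kept the count for BAFF at 30 h (-1.68). On that measure Myc had 211.4 with anti-IgM and 209.8 with both at 8 h, against 84.9 unstimulated. Both met the counting rule as higher there, which they did not by FPKM.

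Of the genes that process the receptor, Adam10, which makes the ligand-dependent cut, had 35.6 FPKM with BAFF at 8 h, where it was counted as lower, against 73.4 in the unstimulated library, but 33.9 and 33.4 by reads over exons with BAFF and unstimulated. The gamma-secretase subunit Psenen was counted as lower with anti-IgM at 8 h (17.6 FPKM, against 120.7 unstimulated). With both stimuli at 8 h it had 135.8 FPKM. Reads over exons gave -1.72 with anti-IgM at 8 h, but they were calculated from the same assembled pieces. Relative to its level, that library had a narrower FPKM interval (16.9 to 18.4) than the unstimulated one (113.4 to 128.0). Yet fewer reads lay on Psenen exons there, about 420 against about 1094. Whether the transcript assembled there ran beyond Psenen was not tested. The subunit genes Aph1b and Aph1c were counted as lower in 2 comparisons each, at no more than 5.06 FPKM. Pofut1, which adds O-fucose to Notch, was counted as higher with BAFF at 8 h (24.6 FPKM, against 8.61 unstimulated) and differed by 0.37 by reads over exons.

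Of the nuclear factors beside Rbpj, none of the Mastermind genes was counted as higher. Maml2 was counted as lower with both stimuli at 30 h (2.44 FPKM, against 9.63 unstimulated). The acetyltransferase gene Kat2b was so with both at 8 h (3.28 FPKM, against 10.4), and reads over exons gave -1.62 and -1.26. By reads over exons Maml2 was low in all libraries with anti-IgM. It had 2.08 with anti-IgM, 5.18 with BAFF and 1.76 with both at 8 h. The 30 h values were 2.86, 5.09 and 2.18 in the same order, against 8.76 unstimulated. Snw1 was counted as lower with anti-IgM at 30 h (21.8 FPKM, against 44.9) and missed the count by reads over exons (-0.93). Spen, a corepressor that binds RBPJ, was counted as higher with anti-IgM at 8 h, at 16.0 FPKM against 7.47 unstimulated, by both measures (1.00 each). The other stimulated libraries were also higher, with intervals apart, but not counted by FPKM. Spen had 15.7 FPKM with both and 10.5 with BAFF at 8 h. At 30 h it had 13.2 FPKM with anti-IgM, 9.19 with BAFF and 13.2 with both. The corepressor genes Cir1, Kdm5a and Sharpin and the Hes1 partner Tle1 were each counted as higher in 1 comparison by FPKM and in none by reads over exons. Ctbp2 was counted as lower with anti-IgM at 8 h, at 1.17 FPKM against 4.04 unstimulated, but reads over exons were 0.213 and 0.201, about 29 and 21 reads.

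The ligase genes Nedd4 and Neurl3 were counted as lower in all 4 libraries with anti-IgM, by both measures. Nedd4, whose product ubiquitinates membrane proteins, had 5.71 FPKM with anti-IgM, 12.0 with BAFF and 6.58 with both at 8 h. After 30 h it had 7.02 FPKM with anti-IgM, 19.0 with BAFF and 8.83 with both, against 25.6 unstimulated. Neurl3, of the Neuralized family, had 37.1 FPKM with anti-IgM, 107.8 with BAFF and 28.4 with both at 8 h, and 19.8, 52.5 and 14.5 FPKM in the same order at 30 h, against 76.5 unstimulated. Nedd4 was counted as lower with BAFF at 8 h as well. Nedd4l was counted as lower in all 6 comparisons by FPKM (2.89 to 7.66 FPKM, against 21.3) and in 1 by reads over exons. Aes, a short relative of the TLE corepressors, was lower in the 4 libraries with anti-IgM (23.2 to 66.4 FPKM, against 146.8). Tle3 was lower with BAFF at 8 h (13.6 FPKM), with anti-IgM at 30 h (8.57) and with both at 30 h (10.3), against 30.1, and the reads over exons counted each of these Aes and Tle3 differences too.

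**Figure D5:**
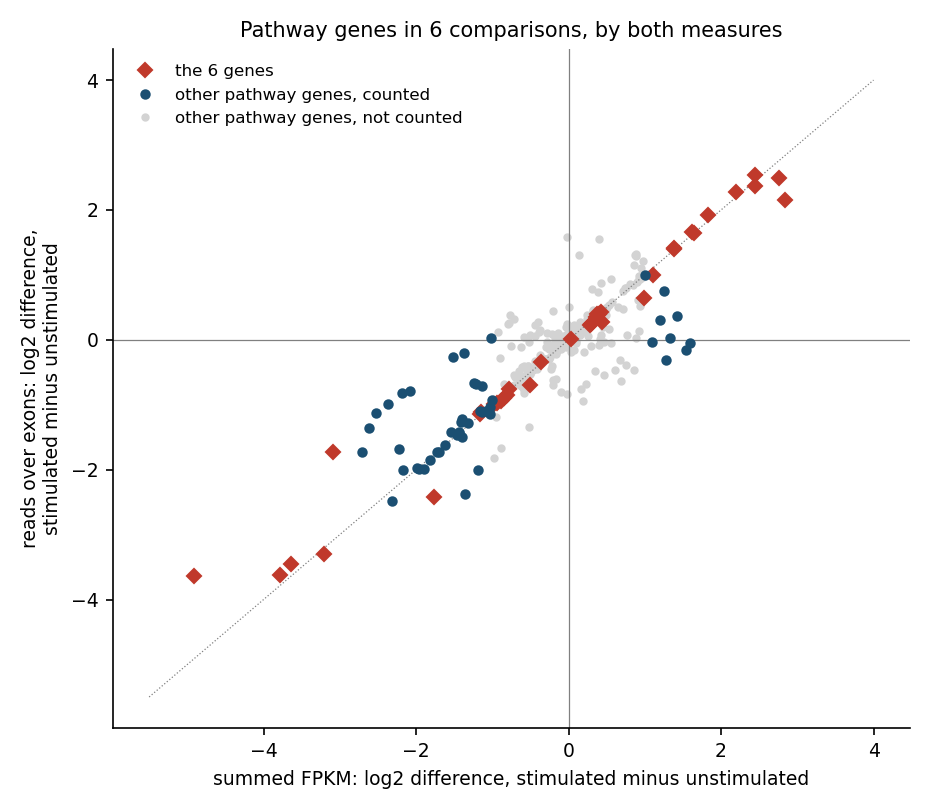
Log2 difference from the unstimulated library by summed FPKM (x axis) and by reads over exons (y axis) for the 6 genes (red) and for other pathway genes, counted (blue) or not (grey), with the line of equal values dotted. Apart from Spen (1.00 by both measures), the blue points at the right, among them Hes5 (0.76 on the y axis), lie nearer 0 on the y axis. Of the 52 counts, 29 were also reached by reads over exons.

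Of the genes listed for marginal zone B cells of the mouse, Cr2, Cd1d1, S1pr3 and Fcrl5 were counted as lower in several stimulated libraries. Cr2 had 40.6 FPKM with anti-IgM, 31.8 with BAFF and 23.4 with both at 8 h. After 30 h it had 36.2 FPKM with anti-IgM, 60.7 with BAFF and 20.1 with both, against 94.0 unstimulated. It was counted as lower in all comparisons but that of BAFF at 30 h. Cd1d1, which presents lipids, was counted as lower in the 4 libraries with anti-IgM (6.96 to 14.5 FPKM, against 31.1), a count lost by reads over exons with both at 30 h (-0.99). The sphingosine phosphate receptor gene S1pr3 had 1.13 to 7.36 FPKM, against 12.3 unstimulated, and was counted as lower in all but the library of anti-IgM at 8 h. Fcrl5 was counted as lower in 3 libraries (8.22 to 14.2 FPKM, against 37.4), of which the count with both at 30 h was lost by reads over exons (-0.95). Cd9 was counted as higher with BAFF at 8 h (66.8 FPKM) and 30 h (66.5), against 25.3, and by reads over exons differed by 0.26 and 0.28. Plac8 (198.3 to 402.6 FPKM) was counted in no comparison, and Mzb1 was not named. The summed macrophage markers, though not Emr1 and Lyz2 among them, were lower in all stimulated libraries beside these genes, and their part was not tested.

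For each gene the most similar profiles over the 7 libraries were sought by Pearson correlation of log2(FPKM + 1) among 8386 genes. The libraries share their depth and assembly across genes, and with 7 points these are descriptions. Notch2 was most like Psen2 (r = 0.997), a gene of the gamma-secretase complex, and Phf8 and Syk were also among its nearest genes. Psen2 had 17.3 FPKM with anti-IgM, 31.4 with BAFF and 18.6 with both at 8 h, and 18.6, 28.0 and 19.2 FPKM in the same order at 30 h, against 26.9 unstimulated. Rbpj was most like Sub1 (0.995), then Aldh9a1, Pdha1, Sdhc and Coro1c. Hes1 was most like Tsc22d3 (0.990), then AA987161, Irf1, Cfl2 and Picalm, and Dtx4 was most like Psmd5 (0.982), then Dhrs4, Prkar1a, Ext1 and Dync1li1. The likeness was lower for Notch1, led by Trrap (0.970), Gpr171, Qsox1, Nek8 and H2-Ke2, and for Dtx1, led by Dusp2 (0.951), Plxnb2, Tial1, Trp53inp2 and Oxsr1.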

How the data were processed

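RNA of primary C57BL/6 mouse B cells was read with poly-dT primed libraries, 1 per condition. Per the submitters' processing notes, the tools included CASAVA 1.8.2, TopHat2 2.0.5, Bowtie2 2.0.0.7 and Cufflinks 2.0.2 with build mm10. The deposited files hold transcripts assembled per library, and the authors give each an FPKM with a lower and an upper bound, per the file headers and attributes. A merged set of transcripts, with no expression values, gave gene names by exon overlap on the same strand.

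FPKM was summed per gene over transcripts of at least 300 bases, since shorter pieces held 66.6% to 74.4% of the FPKM of a library. Bounds were read as 2 SD of counting error and added in quadrature. Mapped reads were recovered from FPKM, bounds and length. Reads over exons used every piece on either strand. Separate assembly can split a gene in 1 library and not in another, which moves summed FPKM and reads over exons. The intervals rest on these bounds and do not cover variation between samples. They can be wider than the number of reads alone gives: unstimulated Rbpj had about 1309 reads on its exons and an interval of 0.64 to 23.2 FPKM. The depth per library was 18.7 to 28.6 M reads.

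A gene was counted as different at a log2(FPKM + 1) difference of 1 with intervals apart, in 15 comparisons. No p-values were computed, with 1 library a condition. Genes named were the 6 members, listed genes that were counted in at least 1 comparison with the unstimulated library or are receptors, ligands or targets, and the 5 most similar profiles of each member. A few genes that this rule names are not reported here, and the counts over lists include them. The members and lists were chosen with earlier results of these data known. The counting rule was tested on simulated data. Alternatives covered the pseudocount, filters, thresholds, intervals, scaling, transcript choice, strand and reads over exons, and the piece with the most exons was chosen after seeing the data. The software was Python 3.11.15 with pandas 2.3.3, numpy 2.4.6 and, for figures, matplotlib 3.10.9.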

Additional observations from a re-analysis of the deposited data

Results flagged for a closer look

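At 8 h, Notch2 differed from the unstimulated library in opposite directions with the single stimuli: by -0.94 on the log2(FPKM + 1) scale with anti-IgM and by 0.29 with BAFF, with intervals apart from the unstimulated one in both cases. It is listed because each condition is 1 library and the values lie on opposite sides of 0. The difference was not tested against variation between samples, and the comparisons share the unstimulated library. By reads over exons the values were -0.98 and 0.24. Over all settings they ranged from -1.10 to -0.20 with anti-IgM and from 0.15 to 1.09 with BAFF. The median gene was itself 0.12 higher with BAFF at 8 h than in the unstimulated library.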

How the results depend on the processing

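Against the unstimulated library, 14 to 22 pairs of the 6 genes and a comparison were counted under the alternatives, beside 19 as reported. In the comparisons among stimuli and times, 11 pairs were counted as reported, 7 with a pseudocount of 5 and 2 with a required log2 difference of 1.5. For the other pathway genes 52 pairs were counted as reported and 21 with the difference of 1.5. Of 464 differences of the 6 genes from the unstimulated library under alternatives, 371 moved by no more than their counting error, 93 moved by more and 0 changed sign while counted. Of 696 among the stimulated libraries, 581 moved by no more than that, 114 moved by more and 1 changed sign while counted: Hes1 with BAFF at 30 h over 8 h, -1.32 by FPKM and 0.69 by reads over exons, where the number of assembled pieces differed (1 at 30 h and 3 at 8 h). Values counted under neither setting changed sign 4 times against the unstimulated library and 25 times among the stimulated ones. Median ratio and upper quartile scaling each counted 22, among them Notch2 with anti-IgM at 8 h and both at 8 h. No paired analysis was possible because each condition had 1 library. With about 33 to 193 reads for Hes1 in the stimulated libraries, depth limits its lower values, and variation between samples was not measured.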
